A study of Mus musculus with 6 samples.

Results

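The 10 matrix metalloproteinase genes described here are Mmp2, Mmp3, Mmp8, Mmp9, Mmp10, Mmp11, Mmp12, Mmp13, Mmp14 and Mmp19. They were taken by gene symbol from a table of 17564 genes measured by bulk RNA sequencing of whole back skin. Wild-type C57BL/6 mice, 8 weeks old and shaved and depilated in both groups, gave 3 SspA/HDM samples and 3 untreated samples. For the SspA/HDM group, SspA (the V8 protease of staphylococci) at 3 µg and house dust mite extract (HDM) at 10 µg were put on the skin together, put on again 3 days later, and the skin was collected 7 days after the initial application. The untreated group received neither agent, and its day of collection is not given in the sources used here. No group received 1 agent alone, so the effects of SspA and of HDM cannot be told apart. Whether each sample is a mouse of its own is not given by the labels. The p-values set the group difference against the spread among 3 samples a group, moderated over genes, and that spread could be technical.

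Matrix metalloproteinases are zinc-dependent endopeptidases that are made as inactive proenzymes and, once activated, cut collagens, laminins, proteoglycans and other proteins around cells. They are held in check by tissue inhibitors of metalloproteinases (TIMPs), and several are activated by plasmin, by furin-like convertases or by one another. In skin they are known from wound repair, where keratinocytes at the wound edge, fibroblasts and infiltrating neutrophils and macrophages each make a different set.

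Library depth ranged from 5606959 to 7545567 reads in the SspA/HDM group and from 4928245 to 5770072 reads in the untreated group. SspA/HDM replicate 3 was the deepest library and untreated replicate 2 the shallowest. Values below are scaled reads, that is reads per gene multiplied by 1 factor per library. The skin label was checked against keratinocyte and fibroblast markers. The summed level of 7 interfollicular keratinocyte markers was 10370 to 12650 scaled reads in SspA/HDM skin and 12210 to 12930 in untreated skin.

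Of the 10 members, 7 were higher in SspA/HDM skin and none was lower (limma on log2(scaled reads + 1), adjusted p under 0.05), while 9.26% of the 15534 genes tested were higher and 7.23% lower (16.5% either way). The 7 were Mmp8, Mmp13, Mmp10, Mmp9, Mmp11, Mmp3 and Mmp14, in order of log2 fold change. Mmp2, Mmp19 and Mmp12 did not pass the test. The median log2 fold change of the members was 1.18, against 0.03 over all genes tested. For 8 of the 10, all higher, the ranges of the groups were apart, against 37.3% of all genes tested (21.7% higher and 15.6% lower). The authors' deposited table also calls the same 7 members higher, with 7.26% of its genes called higher and 7.56% lower, and edgeR called 7 members higher with 8.04% of all genes higher and 7.75% lower. The count of members was 7 without SspA/HDM replicate 3 (9.05% of all genes higher) or untreated replicate 3 (8.27%). It was 4 without SspA/HDM replicate 1 (5.47%) or 2 (3.88%) and 5 without untreated replicate 1 (4.39%) or 2 (4.83%), where fewer genes overall were called too. Whole skin is a mixture, so more cells of a type and more RNA per cell cannot be told apart.

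**Figure D1:**
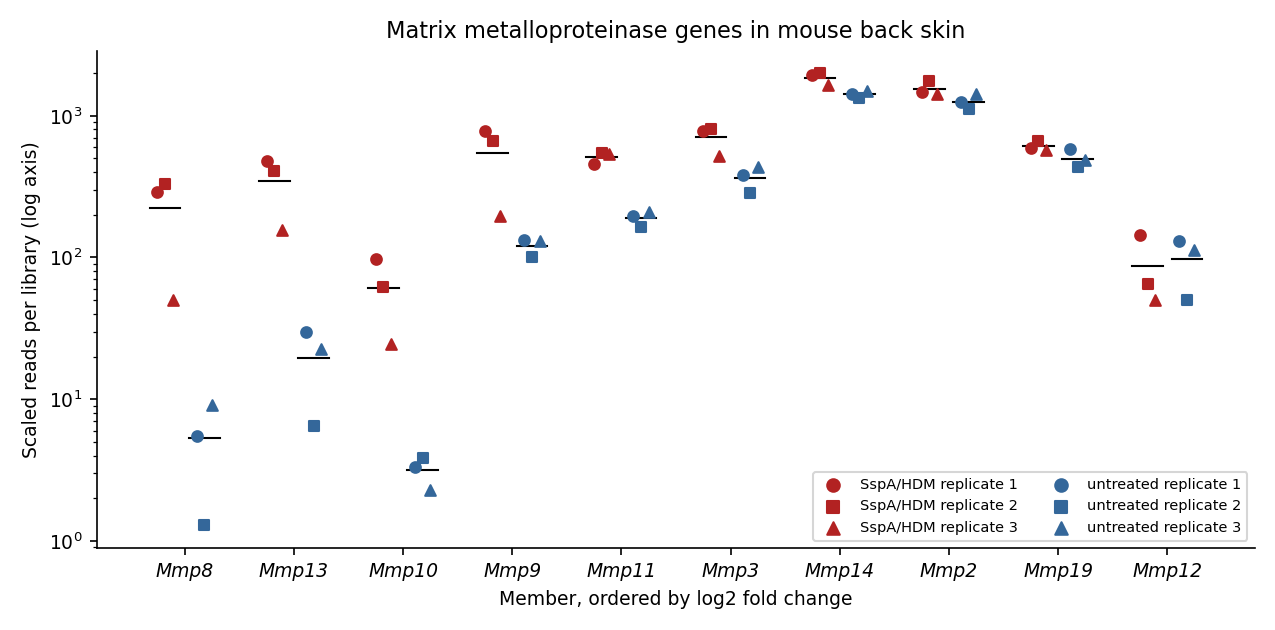
Scaled reads of each member (log axis) in the 3 SspA/HDM libraries (red, left) and the 3 untreated libraries (blue, right), with the mean of each group as a black line. Mmp8, Mmp13 and Mmp10 are separated most widely, and Mmp12 and Mmp19 overlap between the groups.

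Both collagenases, Mmp8 and Mmp13, rose. Mmp8, the collagenase stored in neutrophil granules, had 292, 330 and 50.4 scaled reads in SspA/HDM replicates 1, 2 and 3, against 5.49, 1.29 and 9.09 in untreated replicates 1, 2 and 3. All SspA/HDM libraries lay above all untreated ones, and SspA/HDM replicate 3 was far below the other two. Mmp8 had a log2 fold change of 5.01 ± 0.75 (SE, limma, adjusted p = 0.00514), and the untreated value rests on 14 reads over the group. Without SspA/HDM replicate 3 the log2 fold change was 5.87, and without untreated replicate 2, which held 1 read, it was 4.40. By limma-voom Mmp8 did not pass (adjusted p = 0.105, with a range of 4.79e-06 to 0.105 over 19 alternatives).

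Mmp13, collagenase-3 and the main collagenase of mouse connective tissue, had 479, 409 and 156 scaled reads in SspA/HDM replicates 1, 2 and 3. In untreated replicates 1, 2 and 3 it had 29.7, 6.43 and 22.7. The lowest SspA/HDM library was 5.27 times the highest untreated one. Its log2 fold change was 4.16 ± 0.56 (SE, limma, adjusted p = 0.00382), and it was called in every alternative (adjusted p up to 0.0289). Without untreated replicate 2 the log2 fold change was 3.54.

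All 3 stromelysin genes rose. Mmp10, stromelysin-2, which keratinocytes make at wound edges, had 97.3, 62.1 and 24.4 scaled reads in SspA/HDM replicates 1, 2 and 3, against 3.3, 3.86 and 2.27 in untreated replicates 1, 2 and 3. The groups were well apart, and the untreated level was that of 2 or 3 reads per library, 8 over the group. Mmp10 had a log2 fold change of 3.72 ± 0.49 (SE, limma, adjusted p = 0.00347). In the 4 libraries of like depth, without SspA/HDM replicate 3 and untreated replicate 2, it was 4.39.

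Mmp3, stromelysin-1, which cuts many matrix proteins and activates other metalloproteinase proenzymes, had 783, 806 and 521 scaled reads in SspA/HDM replicates 1, 2 and 3. Its untreated values were 379, 286 and 434. The groups did not overlap, but the lowest SspA/HDM value was only 1.2 times the highest untreated one. For Mmp3 the log2 fold change was 0.93 ± 0.19 (SE, limma, adjusted p = 0.015). Adjusted p for Mmp3 was 0.0538 without SspA/HDM replicate 1 and 0.0562 without SspA/HDM replicate 2, with a range of 6.07e-05 to 0.0562 over 19 alternatives.

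Mmp11, stromelysin-3, is activated inside the cell by furin and is known from stromal cells of remodelling tissue. It had 453, 545 and 538 scaled reads in SspA/HDM replicates 1, 2 and 3, against 197, 163 and 209 in untreated replicates 1, 2 and 3. Both groups were tight, and SspA/HDM replicate 3 stood with the others of its group. Its log2 fold change was 1.43 ± 0.13 (SE), with the smallest adjusted p of the members (limma, adjusted p = 8.76e-04), and Mmp11 was called in every alternative (adjusted p up to 0.007).

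The gelatinases Mmp9 and Mmp2 cut denatured collagen and basement membrane collagen. Mmp9, gelatinase B, had 778, 668 and 197 scaled reads in SspA/HDM replicates 1, 2 and 3, against 133, 100 and 131 in untreated replicates 1, 2 and 3. The untreated libraries were alike, and SspA/HDM replicate 3 lay nearer to them than to the other SspA/HDM libraries. Mmp9 had a log2 fold change of 1.95 ± 0.44 (SE, limma, adjusted p = 0.0198) and 2.57 without SspA/HDM replicate 3. Its call was lost without SspA/HDM replicate 1 (adjusted p = 0.0625) or 2 (adjusted p = 0.0688) and without untreated replicate 1 (adjusted p = 0.0545) or 2 (adjusted p = 0.0657). Over 19 alternatives the adjusted p of Mmp9 ranged from 5.18e-05 to 0.0936.

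Mmp2, gelatinase A, had 1469, 1756 and 1430 scaled reads in SspA/HDM replicates 1, 2 and 3, against 1241, 1114 and 1421 in untreated replicates 1, 2 and 3. The lowest SspA/HDM value and the highest untreated value were nearly equal. The log2 fold change was 0.30 with a 95% interval of 0.05 to 0.55 that is not adjusted for the number of genes, and Mmp2 did not pass (limma, adjusted p = 0.0964, 0.0507 to 0.298 over 19 alternatives).

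Mmp14, the membrane-anchored metalloproteinase that activates the Mmp2 proenzyme on the cell surface, had 1923, 1992 and 1654 scaled reads in SspA/HDM replicates 1, 2 and 3. Its untreated values were 1419, 1334 and 1490. The groups did not overlap, and the change was small beside those of the collagenases, with a log2 fold change of 0.39 and a 95% interval of 0.19 to 0.59 (limma, adjusted p = 0.0201). Adjusted p was 0.0649 without SspA/HDM replicate 1, 0.0815 without SspA/HDM replicate 2, 0.0639 without untreated replicate 1 and 0.0611 without untreated replicate 2, with a range of 0.00361 to 0.0815 over 19 alternatives. Mmp2 and Mmp14 reached 0.557 and 0.52 reads per base of transcript, where no gene of the table exceeded 0.923. With reads estimated from filled positions, as would apply if reads at 1 position had been counted once, the log2 fold changes were 0.46 for Mmp2 (adjusted p = 0.0507) and 0.56 for Mmp14 (adjusted p = 0.00769). Whether reads were counted that way is not given in the sources used here.

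Mmp12, the elastase of macrophages, had 144, 65.3 and 50.4 scaled reads in SspA/HDM replicates 1, 2 and 3, against 131, 50.2 and 114 in untreated replicates 1, 2 and 3. The groups overlapped over most of their range. Mmp12 had a log2 fold change of -0.22 with a 95% interval of -1.21 to 0.78 (limma, adjusted p = 0.785). Its sign turned without SspA/HDM replicate 3 (0.09) and without untreated replicate 1 (0.05). Mmp19, a secreted enzyme that acts on basement membrane proteins, had 595, 662 and 572 scaled reads in SspA/HDM replicates 1, 2 and 3, against 578, 434 and 486 in untreated replicates 1, 2 and 3. Only untreated replicate 1 reached into the SspA/HDM range. For Mmp19 the log2 fold change was 0.30 with a 95% interval of 0.04 to 0.56 (limma, adjusted p = 0.114).

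**Figure D2:**
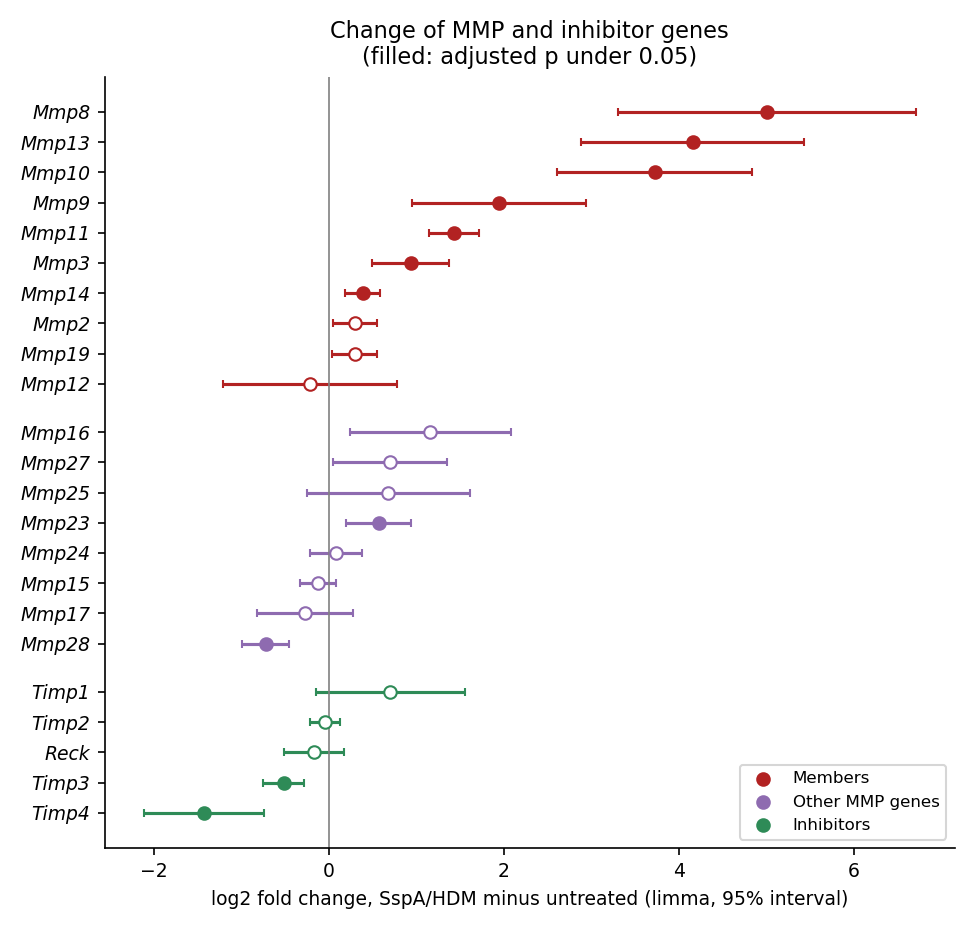
Log2 fold change, SspA/HDM minus untreated, with the 95% limma interval for the 10 members, the 8 other metalloproteinase genes tested and 5 inhibitor genes, where filled points passed at adjusted p under 0.05. Members run from 5.01 for Mmp8 to -0.22 for Mmp12, and the inhibitors that passed, Timp3 and Timp4, are lower.

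In the mouse genome, 5 of the members lie in 1 cluster of metalloproteinase genes. In mm10 coordinates it spans chromosome 9 from 7272514 (the start of Mmp13) to 7581885 (the end of Mmp27), which is 309.4 kb. The order is Mmp13, Mmp12, Mmp1b, Mmp3, Mmp1a, Mmp10, Mmp8 and Mmp27, all on the plus strand except Mmp1b, and 0 other genes of the table lie between them. Of the 5 members in the cluster, 4 rose, beside 9.26% of all genes tested. Mmp12, which lies 64.0 kb after Mmp13, did not pass. Of the cluster genes that are not members, Mmp27 did not pass (limma, adjusted p = 0.135), and Mmp1a and Mmp1b were below the filter. Outside the cluster, Mmp9 lies on chromosome 2 (164948219 to 164955850), Mmp2 on chromosome 8 (92827297 to 92853421), Mmp14 on chromosome 14 (54431598 to 54442456), and Mmp11 (75923222 to 75932502) and Mmp19 (128790955 to 128800827) on chromosome 10.

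**Figure D3:**
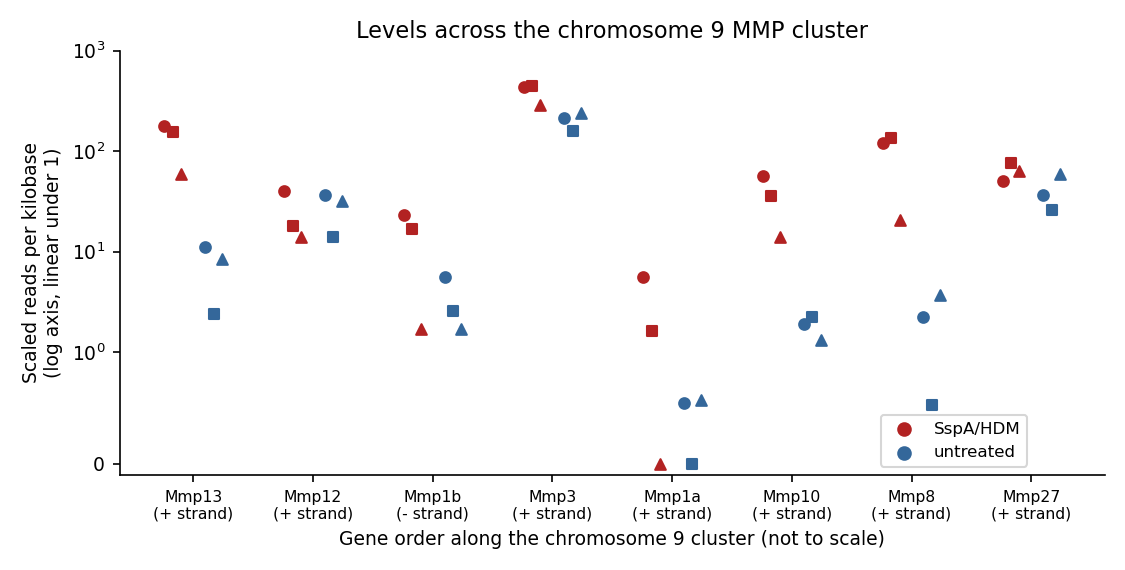
Scaled reads per kilobase of transcript (log axis, linear under 1) for the 8 genes of the chromosome 9 cluster in gene order, with SspA/HDM libraries in red on the left and untreated libraries in blue on the right. Mmp13, Mmp10 and Mmp8 are higher in every SspA/HDM library, whereas Mmp12 between Mmp13 and Mmp1b overlaps.

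Promoters were read from RefSeq windows on build GRCm38.p6, 250 bases before to 50 bases after each start site, for the 7 members with a window, that is all but Mmp2, Mmp9 and Mmp19. They were searched on both strands for TGANTCA, the site bound by AP-1 factors, which reads the same on both strands. Also sought on both strands were AGGAAG, an ETS-type site, and TATAAA, the letters of a TATA box. TGANTCA was found in 4 of the 7, namely Mmp13, Mmp3, Mmp10 and Mmp12, and in 7.81% of all 32851 windows. It began 35 bases before the start site in Mmp13, 46 in Mmp3, 63 in Mmp10 and 44 in Mmp12. Of the 15 family genes with a window, members included, 6 held it. Among these were Mmp1a (73 bases before the start site) and Mmp1b (93), which lie in the same cluster and are not members. None of these matches overlapped a match of another motif. The windows of Mmp8, Mmp11 and Mmp14 held no such letters, and TATAAA was found in 5 of the 7 (13.6% of all windows) and AGGAAG in 4 (35.4% of all windows). The 120 bases before the start site are shown for the 5 members of the chromosome 9 cluster, since these neighbours differ in their change, with the TGANTCA match in capitals.
Mmp13 (chr9:7272394-7272513, + strand): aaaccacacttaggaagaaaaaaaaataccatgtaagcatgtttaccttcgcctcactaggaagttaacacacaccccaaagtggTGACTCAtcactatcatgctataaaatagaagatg
Mmp3 (chr9:7445702-7445821, + strand): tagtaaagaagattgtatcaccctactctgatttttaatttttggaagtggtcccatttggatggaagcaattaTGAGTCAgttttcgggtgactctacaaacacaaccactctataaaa
Mmp10 (chr9:7502222-7502341, + strand): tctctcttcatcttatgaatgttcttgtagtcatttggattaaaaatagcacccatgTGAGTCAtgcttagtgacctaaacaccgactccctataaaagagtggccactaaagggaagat
Mmp12 (chr9:7347254-7347373, + strand): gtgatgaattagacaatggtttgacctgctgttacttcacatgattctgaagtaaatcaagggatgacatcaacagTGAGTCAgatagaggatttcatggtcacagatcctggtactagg
Mmp8 (chr9:7558309-7558428, + strand): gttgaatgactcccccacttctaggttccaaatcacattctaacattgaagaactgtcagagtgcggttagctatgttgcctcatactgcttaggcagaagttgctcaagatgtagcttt
Beside these letters, the log2 fold changes were 4.16 for Mmp13, 0.93 for Mmp3, 3.72 for Mmp10 and -0.22 for Mmp12, all with a match, and 5.01 for Mmp8 without one. A match is a run of letters and not a measured binding site.

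Levels can be compared between genes only per length, so scaled reads were divided by the transcript length in kilobases. In SspA/HDM skin Mmp2 was the highest at 507 ± 58.2 scaled reads per kilobase (SD, n = 3), followed by Mmp14 at 490 ± 47.1 and Mmp3 at 393 ± 88.4, whose ranges overlapped from one to the next. Mmp11 followed at 225 ± 22.2, below the range of Mmp3, and then Mmp19 at 179 ± 13.8. From Mmp19 down, through Mmp9 at 173 ± 97.7, Mmp13 at 131 ± 63.8, Mmp8 at 91.8 ± 62.1 and Mmp10 at 35.6 ± 21.2 to Mmp12 at 24.1 ± 13.9, each range overlapped the next. In untreated skin Mmp2 (412 ± 50.5) and Mmp14 (373 ± 20.5) also led with overlapping ranges, and Mmp13 (7.36 ± 4.48), Mmp8 (2.17 ± 1.6) and Mmp10 (1.83 ± 0.469) were the lowest, also with overlapping ranges. Mmp12, the lowest member in SspA/HDM skin, was above all 3 of these in untreated skin.

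Summed over the 10 members, the level was 2442, 2539 and 1770 scaled reads per kilobase in SspA/HDM replicates 1, 2 and 3, against 1342, 1126 and 1422 in untreated replicates 1, 2 and 3. Mmp2, Mmp14 and Mmp3 made up most of the sum in every library. Mmp13 took 5.58% ± 2.07 of it in SspA/HDM skin and 0.548% ± 0.311 in untreated skin (SD, n = 3 each). For Mmp8 the shares were 3.8% ± 2.29 in SspA/HDM skin and 0.159% ± 0.108 in untreated skin. Mmp2 took 22.9% ± 3.39 in SspA/HDM skin and 31.8% ± 1.33 in untreated skin, although its own level was not lower.

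**Figure D4:**
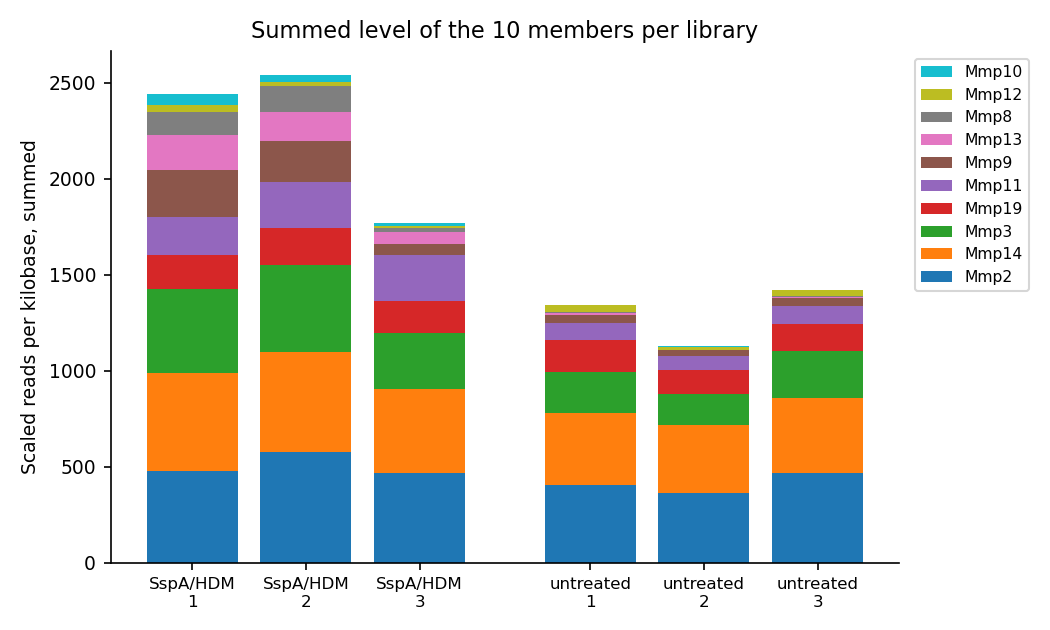
Scaled reads per kilobase of the 10 members stacked for each library, with SspA/HDM replicates 1 to 3 on the left and untreated replicates 1 to 3 on the right. The sums are 2442, 2539 and 1770 in the SspA/HDM libraries and 1342, 1126 and 1422 in the untreated libraries.

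Most members shared their lowest library. SspA/HDM replicate 3 was the lowest of its group for 9 of the 10, all but Mmp11, and for 35.3% of all genes tested. Untreated replicate 2 was the lowest of its group for 9 of the 10, all but Mmp10, and for 40.5% of all genes tested. Relative to the mean of SspA/HDM replicates 1 and 2, replicate 3 had 0.162 of the Mmp8 level, 0.272 of Mmp9, 0.306 of Mmp10 and 0.352 of Mmp13, but 0.845 of Mmp14, 0.887 of Mmp2 and 1.08 of Mmp11. Without replicate 3 the log2 fold changes of these 4 lower genes were larger, at 5.87 for Mmp8, 2.57 for Mmp9, 4.27 for Mmp10 and 4.66 for Mmp13.

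The summed level of neutrophil markers was also lowest, among the SspA/HDM libraries, in replicate 3. The same held for monocyte and macrophage, fibroblast, interfollicular keratinocyte, wound-type keratinocyte and skeletal muscle markers. It did not hold for hair follicle, T cell, mast cell, endothelial and adipocyte markers. All 8 tested of the 12 neutrophil markers were higher in SspA/HDM skin. Their summed level was 3665, 2731 and 1317 scaled reads in SspA/HDM replicates 1, 2 and 3, against 395 to 577 in untreated skin. Ly6g, a defining marker of mouse neutrophils, was listed at 0 in every untreated library and had 30.5, 9.8 and 2.52 scaled reads in SspA/HDM replicates 1, 2 and 3. Of the granule genes on the list, Mpo, Elane and Camp were not called in the authors' deposited comparison. Their log2 fold changes there were 0.70, -0.21 and 1.24. SspA/HDM replicate 3 had 1.5, 1.75 and 0.618 of the mean of replicates 1 and 2, in that order. All of them were below the filter over the 6 libraries. Ltf, which encodes the granule protein lactoferrin, passed it only through the SspA/HDM libraries, where it was higher (limma, adjusted p = 0.0058). Ltf had 13.6, 17.4 and 11.8 scaled reads in SspA/HDM replicates 1, 2 and 3, against 2.2, 1.29 and 1.14 in untreated replicates 1, 2 and 3. Of the 4 wound-type keratinocyte markers 1 was higher, with sums of 4965, 4583 and 3278 scaled reads in SspA/HDM replicates 1, 2 and 3 and 3611 to 3779 in untreated skin.

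Monocyte and macrophage markers were higher for 6 of 13, with sums of 6994 to 9452 scaled reads in SspA/HDM skin and 4584 to 6117 in untreated skin. None of the 9 fibroblast markers passed, and their sums were 12810 to 15960 scaled reads in SspA/HDM skin and 11520 to 13840 in untreated skin. Hair follicle markers were higher for 7 of 9 and varied in another order, with sums of 2227, 909 and 4814 scaled reads in SspA/HDM replicates 1, 2 and 3 and 261 to 306 in untreated skin. T cell markers were higher for 3 of 5, mast cell and endothelial markers for 2 of 5 each, adipocyte markers were lower for 3 of 5, and none of 5 skeletal muscle or 7 interfollicular keratinocyte markers passed. Beside these marker counts, 9.26% of all genes tested were higher and 7.23% lower. The part of these cell populations in the levels of the members was not tested.

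**Figure D5:**
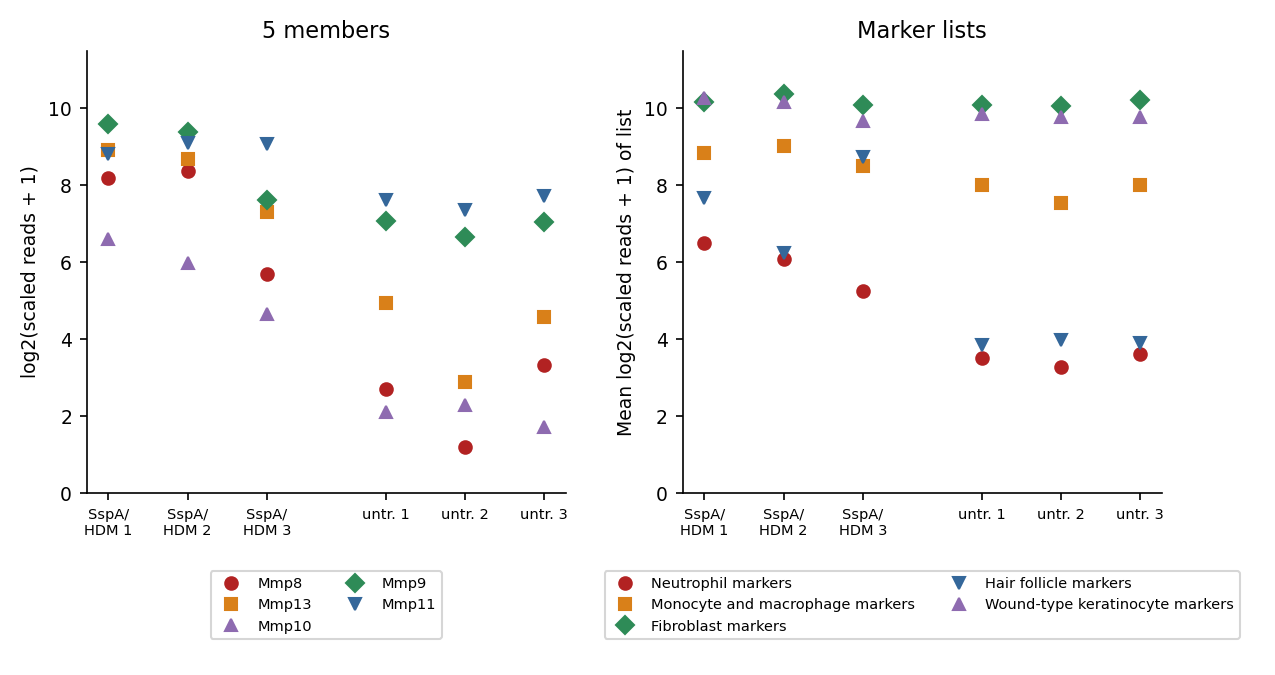
On the left, log2(scaled reads + 1) of 5 members in each library, and on the right the mean of the same measure over 5 marker lists, with SspA/HDM replicates 1 to 3 before untreated replicates 1 to 3. Mmp8, Mmp9, Mmp10 and Mmp13 are lower in SspA/HDM replicate 3 than in replicates 1 and 2, while Mmp11 is not. So are the neutrophil, monocyte and macrophage, fibroblast and wound-type keratinocyte markers, while the hair follicle markers are highest there.

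Among the 10 other metalloproteinase genes with a row, 8 were tested. Of these 1 rose and 1 fell (9.26% and 7.23% of all genes tested), with a median log2 fold change of 0.33. Mmp28, epilysin, which is expressed in resting keratinocytes, fell to 202, 221 and 255 scaled reads in SspA/HDM replicates 1, 2 and 3, against 371, 407 and 342 in untreated replicates 1, 2 and 3. The groups did not overlap. The log2 fold change of Mmp28 was -0.72 ± 0.12 (SE, limma, adjusted p = 0.00677), and it was called in every alternative (adjusted p up to 0.0305). Mmp23 had 165, 207 and 187 scaled reads in SspA/HDM skin and 119, 108 and 152 in untreated skin, and its call (0.57, limma, adjusted p = 0.0479) was lost in 13 of 19 alternatives, among them each library left out except untreated replicate 3 (adjusted p 0.0632, 0.165 and 0.0803 without SspA/HDM replicates 1, 2 and 3, and 0.136 and 0.135 without untreated replicates 1 and 2).

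The other 6 tested did not pass. Mmp16 had a log2 fold change of 1.16 (adjusted p = 0.0837), Mmp27 of 0.70 (adjusted p = 0.135, 0.0337 without untreated replicate 3) and Mmp25 of 0.68 (adjusted p = 0.295) by limma. Mmp24 (0.08), Mmp15 (-0.12) and Mmp17 (-0.28) had log2 fold changes nearer to 0. The rodent collagenase genes Mmp1a and Mmp1b, close copies of each other that could share reads, were below the filter. Mmp1b had 46.4, 33.8 and 3.36 scaled reads in SspA/HDM replicates 1, 2 and 3, against 11, 5.15 and 3.41 in untreated replicates 1, 2 and 3, so that SspA/HDM replicate 3 was the lowest of all. In the 8 alternatives that kept it, Mmp1b was called in 2, without SspA/HDM replicate 3 and in the 4 libraries of like depth (limma, smallest adjusted p = 0.0091). Mmp1a had 10, 3 and 0 reads in SspA/HDM replicates 1, 2 and 3, against 1, 0 and 1 in untreated replicates 1, 2 and 3, so that its groups overlapped and 1 library held most of its reads. Mmp7, Mmp20 and Mmp21 were not analysed here.

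Of the inhibitors, none of 5 rose and 2 fell (9.26% and 7.23% of all genes tested), with a median log2 fold change of -0.17. Timp3, the inhibitor bound to the matrix, had 1220, 1384 and 1445 scaled reads in SspA/HDM replicates 1, 2 and 3, against 1705, 2173 and 1935 in untreated replicates 1, 2 and 3. Every SspA/HDM library was below every untreated one, with a log2 fold change of -0.52 ± 0.10 (SE, limma, adjusted p = 0.0131, 0.0502 without a trend in the spread). Timp4 had 41.8, 99.1 and 63.9 scaled reads in SspA/HDM skin and 210, 190 and 134 in untreated skin, again without overlap. The log2 fold change of Timp4 was -1.43 ± 0.30 (SE, limma, adjusted p = 0.0161), with adjusted p = 0.0639 without untreated replicate 1 and 0.0541 without untreated replicate 2 (9.28e-05 to 0.0639 over 19 alternatives). Adipocyte markers, lower for 3 of 5 with sums of 3153 to 3934 scaled reads in SspA/HDM skin and 4555 to 5756 in untreated skin, moved in the same direction. Skeletal muscle markers had lower sums too, at 6862 to 8775 scaled reads in SspA/HDM skin and 9363 to 11280 in untreated skin. All 5 had negative log2 fold changes, though none was called by limma. The part of either tissue in the Timp3 and Timp4 levels was not tested.

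Timp1, the inducible inhibitor of inflamed tissue, had 304, 339 and 108 scaled reads in SspA/HDM replicates 1, 2 and 3, against 159, 115 and 141 in untreated replicates 1, 2 and 3. SspA/HDM replicate 3 lay below every untreated library and the other SspA/HDM libraries above them. Timp1 did not pass over the 6 libraries (log2 fold change 0.70, limma, adjusted p = 0.24) and was called without SspA/HDM replicate 3 (1.22, adjusted p = 0.0023), with a range of 0.0016 to 0.566 over 19 alternatives. Timp2, which takes part in the activation of Mmp2 by Mmp14 (log2 fold change -0.05, adjusted p = 0.735), and Reck, a membrane-anchored inhibitor (-0.17, adjusted p = 0.482), did not pass by limma. Summed over Timp1 to Timp4, the level was 1061, 1205 and 880 scaled reads per kilobase in SspA/HDM replicates 1, 2 and 3 and 1066, 1129 and 1098 in untreated replicates 1, 2 and 3. The summed level of the 10 members was thus above that of the TIMPs in every library except untreated replicate 2, where they were nearly equal. That sum leaves out the 10 other metalloproteinase genes with a row. These held 430.6 to 471.2 scaled reads per kilobase in SspA/HDM skin and 376.5 to 448.9 in untreated skin. All of these are RNA levels, and protein and active enzyme were not measured here.

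In the list of proenzyme activation and the plasminogen system, 4 of 10 tested genes rose and 1 fell (median log2 fold change 0.27). Over all genes tested the shares were 9.26% higher and 7.23% lower. Plaur, the urokinase receptor, had 392, 179 and 135 scaled reads in SspA/HDM skin and 65.9, 69.5 and 67 in untreated skin (1.64, limma, adjusted p = 0.0141, 0.0555 by limma-voom). Plau, urokinase itself, rose less (0.55, limma, adjusted p = 0.0132, 0.0566 without SspA/HDM replicate 2 and 0.00164 to 0.0566 over 19 alternatives). The convertase genes moved apart, with Pcsk5 higher (1.18, limma, adjusted p = 0.0167, 0.0571 without untreated replicate 2 and 1.90e-05 to 0.0571 over 19 alternatives) and Pcsk6 lower (-0.71, limma, adjusted p = 0.00529). Furin, which activates Mmp11 and Mmp14, had 1264, 1317 and 1190 scaled reads in SspA/HDM skin and 1188, 1131 and 1053 in untreated skin and did not pass (0.16, limma, adjusted p = 0.184). Plg was not analysed here.

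Among 17 matrix substrates 3 rose and 1 fell (9.26% and 7.23% of all genes tested), with a median log2 fold change of 0.19. Higher were 7 without SspA/HDM replicate 3 (9.05% of all genes) and 0 without SspA/HDM replicate 2 (3.88%). The count was 2 without SspA/HDM replicate 1 (5.47%) or untreated replicate 3 (8.27%), and 1 without untreated replicate 1 (4.39%) or 2 (4.83%). Lama3, the alpha chain of laminin-332, had a log2 fold change of 0.85 (limma, adjusted p = 0.0152, 0.054 without SspA/HDM replicate 1 and 0.055 without SspA/HDM replicate 2, 6.64e-05 to 0.055 over 19 alternatives). Col5a1 (0.55, adjusted p = 0.0332) and Col7a1 (0.31, adjusted p = 0.027), the collagen of anchoring fibrils, also rose by limma, each called in 13 and 10 of 19 alternatives in that order. Col5a1 was not called without SspA/HDM replicate 2 (adjusted p = 0.11), untreated replicate 1 (adjusted p = 0.0687) or untreated replicate 2 (adjusted p = 0.0858). Col7a1 was not called without SspA/HDM replicate 2 (adjusted p = 0.104) or without untreated replicate 1 (adjusted p = 0.0606), 2 (adjusted p = 0.0741) or 3 (adjusted p = 0.0687). Col17a1, a collagen of hemidesmosomes, fell by 0.34 on the log2 scale (limma, adjusted p = 0.0132, 0.052 without untreated replicate 1 and 1.33e-04 to 0.052 over 19 alternatives). The fibrillar collagen genes Col1a1 (0.31, adjusted p = 0.173) and Col3a1 (0.18, adjusted p = 0.258), substrates of the collagenases, did not pass by limma. They reached 0.735 and 0.754 reads per base in that order. Col3a1 passed as higher in 2 of 19 alternatives. With reads estimated from filled positions its log2 fold change was 0.46 (limma, adjusted p = 0.0462). Using only the 4 libraries of like depth gave 0.23 (limma, adjusted p = 0.0476). Col1a1 passed in none of 19 alternatives (log2 fold change 0.15 to 0.59, adjusted p 0.0771 to 0.432).

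For signals that induce metalloproteinase genes and for factors of the AP-1 and ETS families, 8 of 19 tested genes rose and none fell. Their median log2 fold change was 0.27, and over all genes tested 9.26% rose and 7.23% fell. Called higher were 5 without SspA/HDM replicate 1 (5.47% of all genes) or untreated replicate 2 (4.83%). The count was 4 without SspA/HDM replicate 2 (3.88%) and 3 without untreated replicate 1 (4.39%), where fewer genes overall were called too. Il17f, an interleukin that acts on keratinocytes and fibroblasts, had 54.3, 22.9 and 21 scaled reads in SspA/HDM replicates 1, 2 and 3 and 0 in each untreated library. It was called higher (limma, adjusted p = 0.00111). Il1b had 755, 353 and 160 scaled reads in SspA/HDM skin and 53.8, 56.6 and 59.1 in untreated skin. Its log2 fold change was 2.61 (limma, adjusted p = 0.00789), and by limma-voom adjusted p was 0.066. Like Il1b, Osm (183, 57.7 and 27.7 scaled reads in SspA/HDM replicates 1, 2 and 3, and 2.57 to 9.09 in untreated skin) and Tnf (140, 61 and 57.1, and 22 to 30.9 in untreated skin) were highest in SspA/HDM replicate 1 and lowest in replicate 3. Both rose, with log2 fold changes of 3.38 for Osm (limma, adjusted p = 0.0117, 0.0762 by limma-voom) and 1.5 for Tnf. Tnf was not called without untreated replicate 1 (adjusted p = 0.0759, with 0.0223 over the 6 libraries and 0.00174 to 0.0759 over 19 alternatives). Il6 rose (1.78, limma, adjusted p = 0.0326), and without any 1 library except SspA/HDM replicate 3 it was not called (adjusted p 0.0527 to 0.112). Summed neutrophil, wound-type keratinocyte, interfollicular keratinocyte and skeletal muscle markers were highest and lowest in the same SspA/HDM libraries. The part of any of these cells in the cytokine levels was not tested.

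Of the AP-1 genes Fosl2 rose (log2 fold change 0.27, limma, adjusted p = 0.0319), with a call in 8 of 19 alternatives and none with any 1 library left out except SspA/HDM replicate 3 (adjusted p 0.0664 to 0.0954 in the other 5). Jun (0.10, adjusted p = 0.429), Junb (-0.03, adjusted p = 0.862), Fos (-0.21, adjusted p = 0.391) and Fosb (-0.23, adjusted p = 0.717) did not pass by limma. Nor did Jund (-0.28, limma, adjusted p = 0.0769), although its groups did not overlap. Fosl1 had 170, 133 and 159 scaled reads in SspA/HDM skin and 94.5, 210 and 64.8 in untreated skin and did not pass (adjusted p = 0.4), but was called without untreated replicate 2 (0.96, adjusted p = 0.0324, range 0.028 to 0.844 over 19 alternatives). Ets1 (0.40, adjusted p = 0.0166) rose by limma, and its adjusted p was 0.0687 without SspA/HDM replicate 2, 0.0582 without untreated replicate 1 and 0.0504 without untreated replicate 2 (0.0092 to 0.0687 over 19 alternatives). Etv4 went the other way without overlap of the groups (-0.55), and did not pass by limma (adjusted p = 0.0576). It was called lower in 4 of 19 alternatives, among them DESeq2 (adjusted p = 0.0231), and in the authors' deposited comparison (adjusted p = 0.0232). Ets2 did not pass (0.02, limma, adjusted p = 0.915). Tgfb1 (0.45, adjusted p = 0.0226) rose by limma and was not called without SspA/HDM replicates 1 (adjusted p = 0.055) or 2 (adjusted p = 0.0843) or untreated replicates 1 (adjusted p = 0.0539) or 2 (adjusted p = 0.0524), with a range of 0.0196 to 0.0843 over 19 alternatives.

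The genes whose profile over the 6 libraries lay nearest to those of the 3 members with the largest change were sought among 13773 genes by the Euclidean distance of centred log2 values. For Mmp8 they were Cd300lf, Cstdc4 and Draxin, at distances of 1.23, 1.40 and 1.53. Mmp13 was nearest to Disp2 (0.79), Fpr1 (0.96), a formyl peptide receptor of phagocytes, and Retnlg (1.02), a neutrophil gene. The nearest to Mmp10 were Hpx (0.91), which encodes the heme-binding protein hemopexin, and the C-type lectin receptor genes Clec4d (0.94) and Clec4e (0.94). These distances describe 6 libraries in 2 groups and are dominated by the difference between the groups.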

How the data were processed

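Per the labels' protocols, a stranded mRNA kit turned RNA of whole skin into libraries. The submitters' processing notes name the tools bcl2fastq 2.20.0.422, STAR and DESeq2 and the build mm10. The tool that counted reads is not given in the sources used here. Deposited by the authors was 1 table whose 6 value columns hold a scaled signal per gene, beside log2 fold changes, p-values and adjusted p-values that the authors deposited for their own comparison. The deposited fold change is positive where SspA/HDM skin is higher.

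Each column held whole multiples of 1 step, so reads were recovered (100.0% of values came out within 0.1 of a whole number). With filterByExpr of edgeR 4.0.16 as the filter (at least 10 reads, 15 in total), the remaining genes went into limma 3.58.1 (R 4.3.3) on log2(value + 1), with a trend in the spread and group as the only term. P-values were Benjamini-Hochberg adjusted over 15534 genes, with 0.05 as threshold. The pseudocount understates the change of low genes. All 10 members passed the filter. Mmp8 and Mmp10, and Ltf and Il17f of the other lists, passed it only through the SspA/HDM libraries. At their untreated levels these genes could be tested only if high in SspA/HDM skin. On recovered reads, the edgeR quasi-likelihood test called 1249 genes higher and 1204 lower.

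The members, gene lists and motifs were chosen with earlier results of these data known. Named are all members, the other family and inhibitor genes, up to 6 called genes per further list, and the 3 nearest profiles for 3 members (predicted genes and those averaging under 5 CPM in their higher group left out). Furin, the collagen, AP-1 and ETS genes that did not pass, Il6, Fosl2 and the marker genes named, were chosen after their values were seen. One called gene of the activation list is not reported here. On simulated data for this comparison (15534 genes) limma recovered 94% of genes changed 3-fold and 43% of those changed 1.5-fold, and called 5 of 15334 unchanged genes. Alternatives were DESeq2 1.42.0, edgeR, limma-voom, limma without a trend, TMM scaling, other pseudocounts and filters, the replicate block, each library left out, 4 libraries of like depth, thinned reads, a stricter threshold and the authors' deposited comparison. Reads estimated from filled positions, -length × ln(1 - reads/length), were added after seeing the data. Python 3.11.15 and matplotlib 3.10.9 drew the figures.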

Additional observations from a re-analysis of the deposited data

How the results depend on the processing

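The count of 7 higher members stayed at 7 or within 1.5 times of it in 17 of 21 alternatives. It was 4 with limma without a trend in the spread and at adjusted p under 0.01, and ranged from 4 to 7 with single libraries left out. No member was called lower in any alternative. With single libraries left out, the log2 fold change of Mmp12 ranged from -0.652 to 0.094, with the sign turned without SspA/HDM replicate 3 (0.094) and untreated replicate 1 (0.045), not called in either. Over all genes, 922 higher and 640 lower were called without a trend, 362 and 288 at adjusted p under 0.01, and 610 to 1420 and 529 to 1344 with single libraries left out.

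Of other metalloproteinase genes, 0 were called higher with edgeR, DESeq2, limma-voom, no trend, TMM scaling, the replicate block, thinned reads, adjusted p under 0.01 or the authors' deposited comparison, and 0 to 2 with single libraries left out. Inhibitors called higher were 1 in the 4 libraries of like depth and 0 to 1 with single libraries left out, and those called lower 1 without a trend, 0 at adjusted p under 0.01 and 1 to 2 with single libraries left out. Activation genes called higher were 1 at adjusted p under 0.01. Matrix substrates called higher were 1 with limma-voom, 0 without a trend or at adjusted p under 0.01, 5 with the replicate block, in the 4 libraries of like depth or from filled positions, and 0 to 7 with single libraries left out. Those called lower were 0 at adjusted p under 0.01 and 0 to 1 with single libraries left out. Inducing signals and factors called higher were 3 with limma-voom or without a trend, 2 at adjusted p under 0.01 and 3 to 8 with single libraries left out, and called lower 1 with DESeq2, limma-voom, the replicate block or the authors' deposited comparison and 0 to 1 with single libraries left out. The cause of these changes was not tested.

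Deviations of same-numbered samples from their group means had correlations over genes of -0.085, -0.055 and 0.054. Differently numbered samples had -0.098 to 0.146. These values show no pairing by number, and with 3 samples a group they cannot exclude one. With the replicate block 1348 genes were called higher and 1096 lower, and 7 members higher. Untreated levels of Mmp8 and Mmp10 rest on 14 and 8 reads, which limits the precision of their fold changes, and 3 samples a group limit all of them.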
